A study of Arabidopsis thaliana with 9 samples.

Results

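Nuclei gated for cambium reporters were compared with nuclei sorted without such a gate from the same organ, the radially growing Arabidopsis hypocotyl, to describe which genes differ and what those genes do. The comparison set the 3 cambium-gated 384-well plates (VASA cambium, replicates 1 to 3) against the 3 ungated plates (VASA all hypocotyl, replicates 1 to 3), 6 of the 9 libraries analysed. For each plate, counts were summed over the wells that held over 1200 and under 15000 counts, without the ERCC spike-in RNAs, which left 1588 nuclei. The gated plates held 313, 277 and 292 nuclei, and the ungated plates 293, 232 and 181.

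All plants of both gates were Col-0 carrying PXY:H4-GFP and SMXL5:H2B-RFP, grown for 4 weeks in short days of 10 h light and 14 h darkness on agar with half-strength salts and 1% sucrose. The first transgene places a GFP-tagged histone under the promoter of PXY, a receptor kinase of the cambium and young xylem, and the second an RFP-tagged histone under the promoter of SMXL5, which acts in the cambium and young phloem. Gated nuclei carried GFP, RFP or both, so the gate takes in both sides of the cambium and the cells that inherit labelled histones. Ungated nuclei were sorted by their DNA stain alone and include cambium nuclei as well. Each gate rests on 1 preparation of pooled hypocotyls whose nuclei filled its 3 plates, so that the p-values below measure the spread between plates of a pool. The gate, the preparation, and the day and hour of harvest cannot be told apart.

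The cambium is the stem cell layer between wood and bast that thickens stems, roots and hypocotyls. It gives rise to xylem on its inner face and phloem on its outer face, while a second meristem, the phellogen, forms the corky periderm that replaces epidermis and cortex as the organ widens. In FANS, fluorescence-activated nuclei sorting, single nuclei are sorted by their stain or fluorescent proteins. VASA-seq then reads fragments from the whole length of both polyadenylated and other RNA of each well, so that the nuclear profile reflects unspliced and recently made transcripts to a larger degree than that of whole cells.

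Yield overlapped between the gates. Counts in passing nuclei ranged from 1148888 to 1822306 a plate, and the median per nucleus was 5169.5 ± 967 in gated and 5657.8 ± 378 in ungated plates (SD, n = 3 each; two-sided exact permutation p = 0.6, where the smallest possible p is 0.1). The share of organelle-encoded counts was 2.46% ± 0.304 and 2.57% ± 0.448 (exact permutation p = 0.7). The 6 wells kept blank on each plate had a median of 112 to 347.5 counts and at most 749, below the 1200 needed to pass. In log2 CPM over the tested genes, plates of the same gate correlated at r = 0.91 to 0.95 and plates of different gates at r = 0.88 to 0.92, given as a description over genes that share library depth.

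Of the 16134 genes with enough counts to be tested, 505 differed at an FDR below 0.05 in edgeR's quasi-likelihood test, 3.13% of those tested. Of these, 220 were higher in gated plates (1.36%) and 285 lower (1.77%). The differences were mostly moderate: 317 genes differed over 2-fold (107 higher, 210 lower) and 67 over 4-fold (19 higher, 48 lower), with a median size of 1.15 on the log2 scale. The genes that rose took 2.82%, 2.66% and 2.65% of counts on the gated plates and 1.44%, 1.39% and 1.37% on the ungated ones, while those that fell took 1.17%, 1.2% and 1.16% against 2.71%, 2.71% and 2.62%. In all 505 genes the plates of one gate lay wholly above those of the other, which holds for 19.5% of all genes tested. Of the 505, 140 (0.868% of those tested), 57 of them higher (0.353%) and 83 lower (0.514%), were also called in each of the 6 fits that leave out 1 plate, and the genes given with single-plate values below come from these unless stated. Sums over a plate cannot tell fewer nuclei of a type from less RNA per nucleus.

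**Figure D1:**
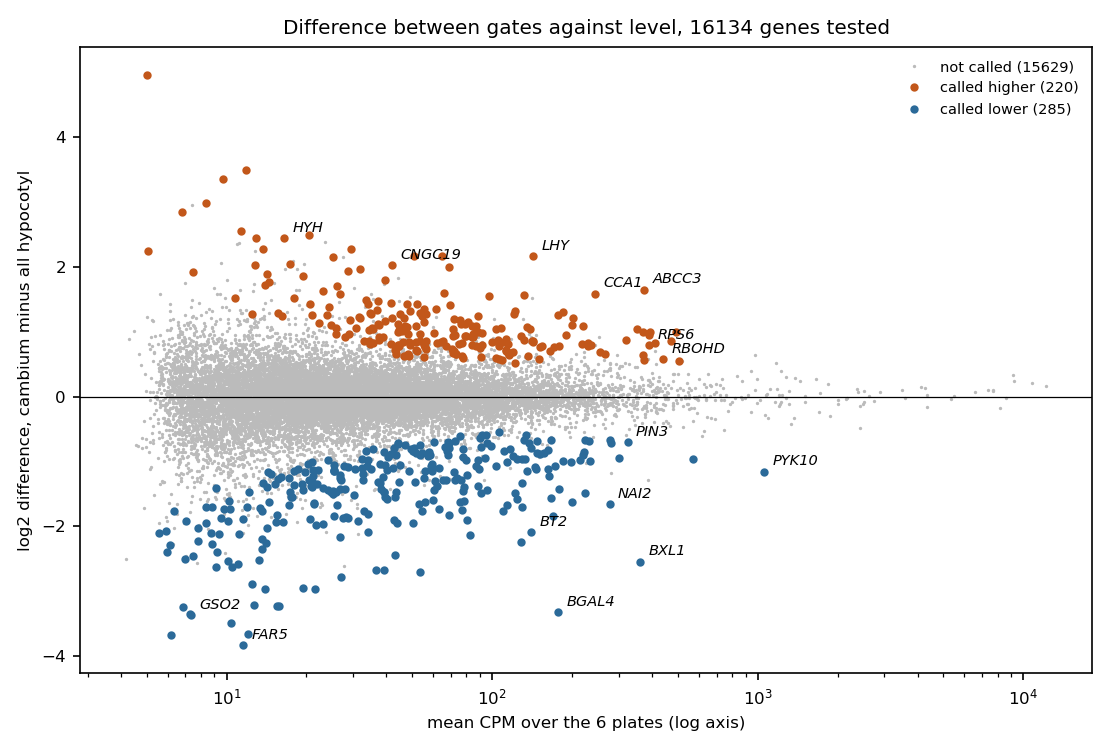
Difference between gated and ungated plates (log2, vertical axis) against the mean level (log10 CPM, horizontal axis) for the 16134 genes tested, with the 220 genes called higher and the 285 called lower in colour and selected genes named. The called genes lie at all levels, and more of the genes that fell than of those that rose differ over 4-fold (48 against 19).

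By annotation, 501 of the 505 genes were protein coding. At least 1 functional list, published marker or hormone list or protein family held 351 of them, leaving 154 in none. These groups include those added after their values were seen. Sorted by their gene descriptions, the families with no called gene included histones (34 tested), splicing and RNA-binding proteins (236 tested), photosystem and light-harvesting proteins (61), type 2C phosphatases (50) and glutathione transferases (35). Of 282 ribosomal protein genes, 1 was called. Called receptor kinases mostly rose, and called glycosyl hydrolases, cytochromes P450 and acyl enzymes mostly fell, while transporters were mixed. Among 230 receptor kinases, 15 rose and 4 fell (8.26% called). Among 552 other protein kinases 16 rose and 9 fell (4.53% called, near the 3.13% of all genes tested). Sugar and amino acid transporters had 1 higher and 1 lower among 99, and ABC transporters 1 higher and 0 lower among 42. Among 127 glycosyl hydrolases, 5 rose and 13 fell. Cytochromes P450 split 2 to 8 among 97 tested, nitrate and peptide transporters 5 to 9 among 97, and acyl and fatty acid enzymes 0 to 11 among 120. The medians of these families stayed close to that of all genes tested (-0.004 on the log2 scale), from 0.02 to 0.06 in the kinases and -0.07 in the acyl enzymes.

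**Figure D2:**
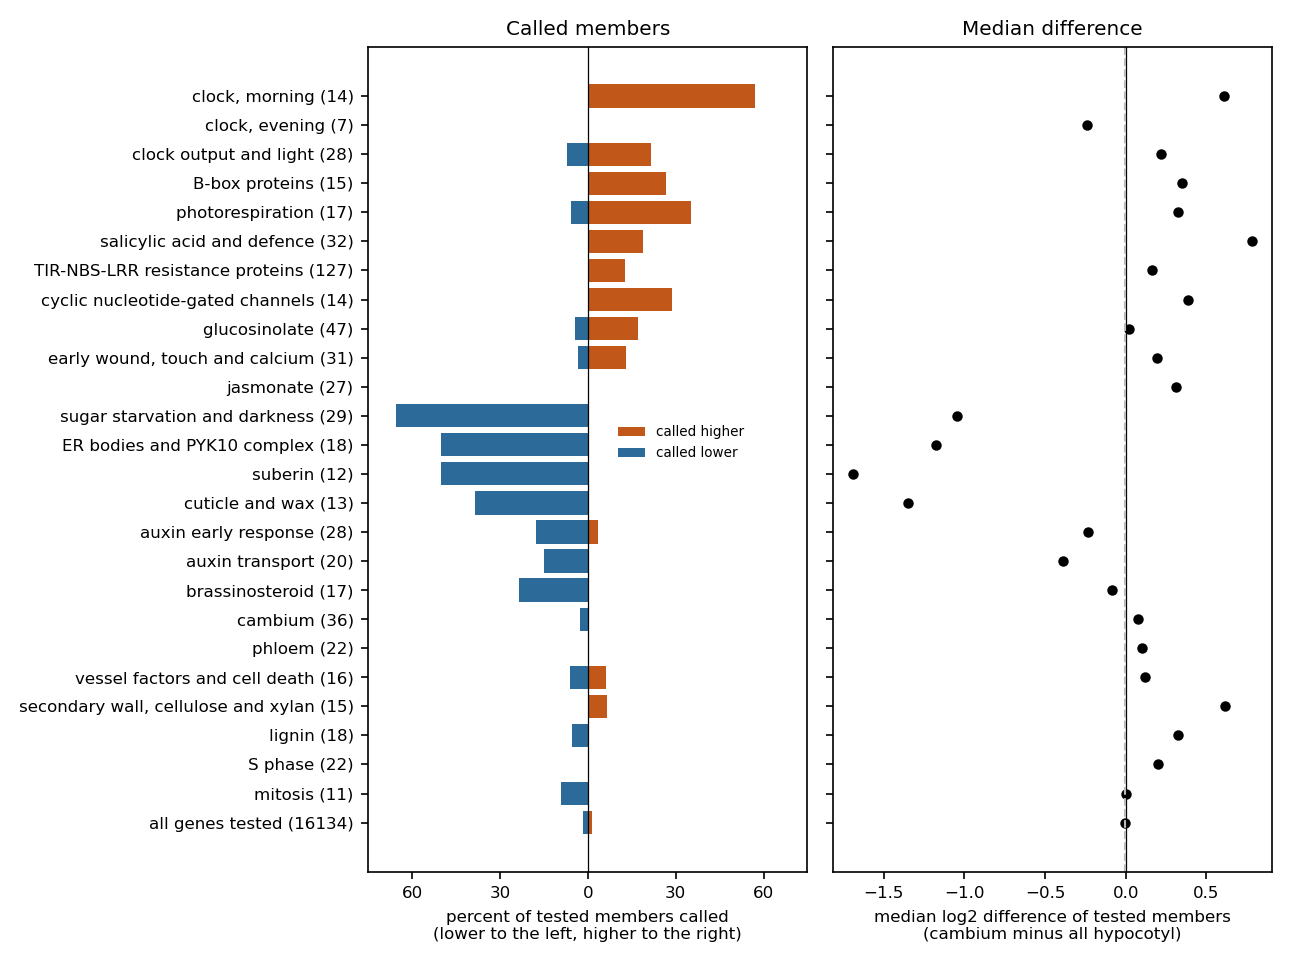
Left, percent of tested members called higher (to the right) and lower (to the left) on gated plates for functional lists and families, with the number tested in parentheses; right, the median log2 difference of the tested members, with a dashed line at that of all genes tested. Of the lists plotted, sugar starvation (65.5% lower) and morning clock (57.1% higher) reach furthest to either side, and the cambium list (2.78%) is near the share of all genes tested (3.13%). The B-box, photorespiration, cyclic nucleotide-gated channel and ER body groups were chosen after their values were seen, so their shares cannot be set against that of all genes. Scarce suberin and cuticle genes could be tested through their ungated counts alone.

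Genes for intracellular immune receptors were higher in the gated plates. These receptors carry a nucleotide-binding domain and leucine-rich repeats, sense pathogen effectors inside the cell and trigger local cell death. Of 127 tested, 16 rose and 0 fell (12.6% called; 7 to 11 rose with 1 plate left out, the fewest without ungated plate 2), with a median of 0.17 over the family on the log2 scale. RPS6 (AT5G46470), which recognises a Pseudomonas effector, stood at 522, 484 and 478 CPM (counts per 1000000 of the plate's TMM-adjusted total) on the gated plates and 294, 287 and 276 CPM on the ungated ones. Its 3 gated values all exceeded the ungated ones and varied little, giving a 1.73-fold higher level (log2 0.79 ± 0.12 SE, edgeR FDR 0.00866). The receptor gene AT5G41750 had 306, 234 and 209 CPM against 124, 103 and 82.2 CPM, with the highest value on gated plate 1 and the lowest on ungated plate 3. It was 2.4-fold higher (log2 1.26 ± 0.19 SE, edgeR FDR 0.00766). ZAR1, a receptor outside these 127 by its description that assembles into a membrane pore once activated, had 176, 165 and 171 CPM against 102, 91 and 85.9 CPM. The gates were apart by more than 60 CPM in ZAR1, a 1.83-fold difference (log2 0.88 ± 0.12 SE, edgeR FDR 0.00637). The other receptors that rose included AT1G31540 (log2 1.09), AT5G41740 (1.22), AT4G19510 (0.86) and, in fewer of the leave-one-out fits, RPP1 (0.80), which recognises a downy mildew effector, and ADR1 (0.61), a helper that acts downstream of other receptors. Near-identical copies are common in this family, so the reads of single members may be shared among them.

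Other genes of defence rose as well. Among 32 tested genes of salicylic acid signalling and defence, 6 rose and 0 fell (18.8% called; 4 to 9 rose with 1 plate left out, the most without gated plate 3), and 29 of the 32 had positive estimates, with a median of 0.78 against -0.004 over all genes. WAK1, a wall-associated kinase that binds pectin, had 151, 177 and 109 CPM on gated and 58, 41.7 and 47.6 CPM on ungated plates. Every gated plate was above 100 CPM and every ungated plate below 60, a 2.94-fold difference (log2 1.56 ± 0.20 SE, edgeR FDR 0.00425). WRKY46, a transcription factor of basal defence, had 90.8, 64 and 74.2 CPM against 34.2, 23.9 and 39.2 CPM (log2 1.24 ± 0.20 SE, edgeR FDR 0.0116). PAD4, which with EDS1 relays the signal of immune receptors, had 119, 128 and 57.8 CPM against 47.6, 38.3 and 26.1 CPM. Gated plate 3 was well below the other gated plates in PAD4 and close to ungated plate 1, and the call (log2 1.41, edgeR FDR 0.0331) was lost in 5 of the 6 leave-one-out fits. The surface receptors and their partners included SERK4, a co-receptor shared by several receptor kinases, with 211, 173 and 166 CPM against 96.3, 103 and 106 CPM (log2 0.85 ± 0.14 SE, edgeR FDR 0.0106). SOBIR1, which pairs with receptor-like proteins, rose by less (log2 0.83; called in 3 leave-one-out fits), as did the oxidase RBOHD (log2 0.58; called in none of them), the source of the oxidative burst. The marker of the established salicylic acid response, PR1, had at most 1.85 CPM on any plate and was not tested, and none of 27 jasmonate genes was called although 22 had positive estimates (median 0.31).

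Cyclic nucleotide-gated channels, which let calcium into the cell during defence and wounding, made up a further group, chosen after its values were seen. Of 14 tested, 4 rose and 0 fell. CNGC19, which carries the calcium signal of wounded vascular tissue, had 57.9, 67.1 and 78.7 CPM on gated and 20.9, 15.7 and 12.1 CPM on ungated plates. The lowest gated plate was above 50 CPM and the highest ungated plate near 21, a 4.06-fold difference (log2 2.02 ± 0.21 SE, edgeR FDR 0.00177). CNGC12 had 271, 274 and 300.1 CPM against 146, 97.8 and 121 CPM (log2 1.21 ± 0.16 SE, edgeR FDR 0.00416). CNGC3 stood at 45.1, 57.8 and 45.3 CPM against 23.8, 15 and 21.5 CPM (log2 1.29 ± 0.21 SE, edgeR FDR 0.0118). The channels lie side by side on chromosome 2, CNGC3 at 19057999 to 19061492 and CNGC12 at 19065536 to 19069569, with CNGC11 (log2 1.53; called in no leave-one-out fit) between them, all on the plus strand. CNGC11 and CNGC12 are close copies. The calcium pump ACA1, which removes the ion, had 591, 388 and 437 CPM against 247, 198 and 245 CPM, and its call (log2 1.04, edgeR FDR 0.0129) was lost without ungated plate 2. Of 188 ion transporters and pumps by description, 4 rose and 8 fell. Of 31 genes of the early wound, touch and calcium response, 4 rose, the kinase MPK3 (log2 0.81), WRKY33 (0.75), ERF105 (0.74) and RBOHD, and DREB2A fell (-0.80), with none of the 5 called in all leave-one-out fits.

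**Figure D3:**
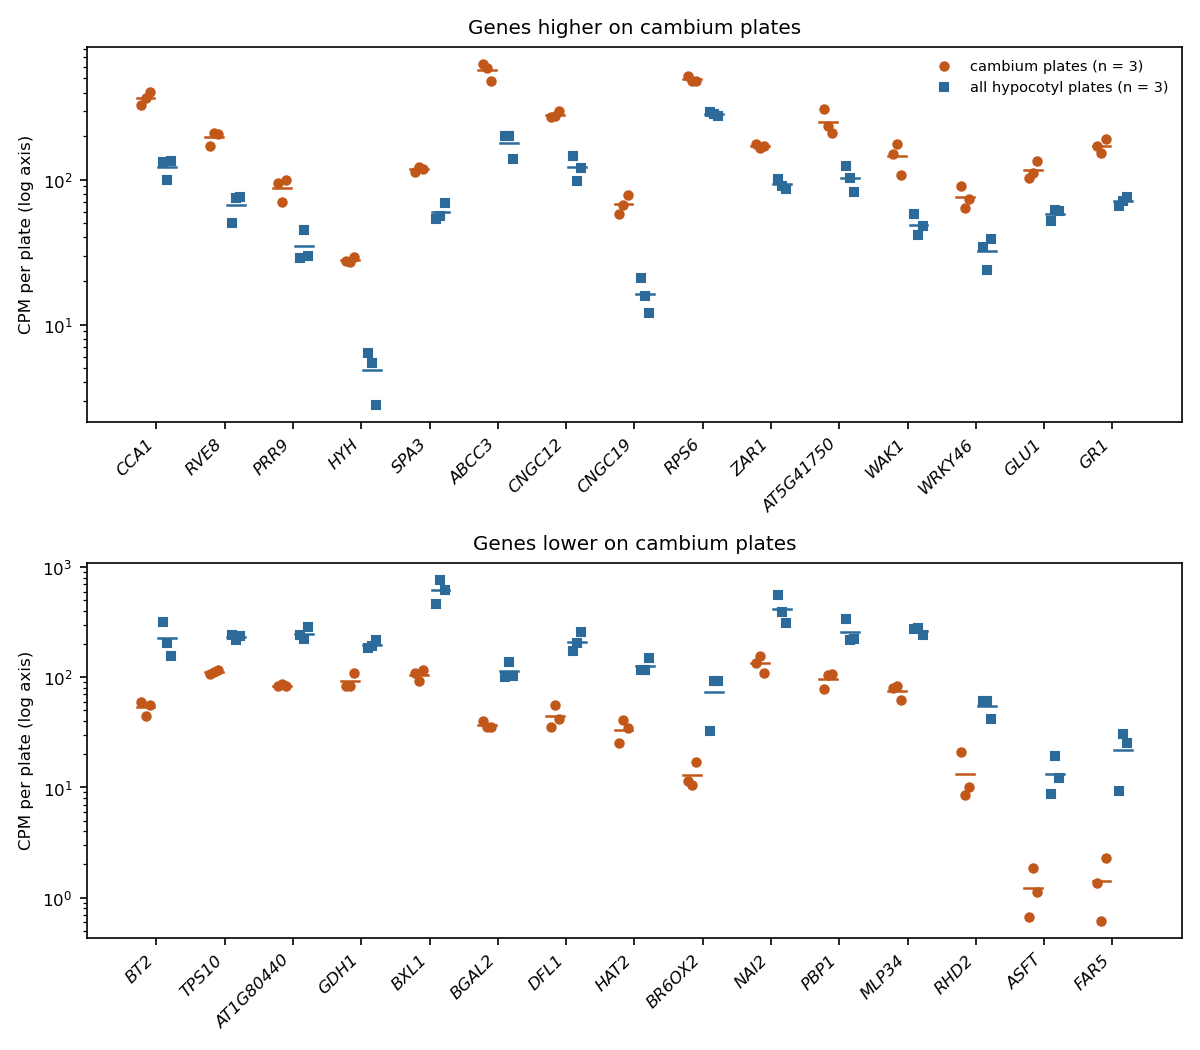
CPM on each plate (log axis) for 15 genes that rose and 15 that fell, with circles for cambium plates, squares for all hypocotyl plates and a line at the mean of each gate. In all of them the 3 plates of one gate lie apart from those of the other; ASFT and FAR5 are scarce on gated plates, at 0.615 to 2.27 CPM.

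The study's cluster lists, drawn from the droplet library of the same series, gave a view of these genes by cell group. They rest on other nuclei of the series, and each holds 20 genes. Of the 20 genes of the cluster that the study left unnamed as unknown #7, 10 rose and 0 fell (50.0% called; 6 to 9 with 1 plate left out, the fewest without ungated plate 2; median 0.90), among them ABCC3, an ATP-driven transporter of conjugates into the vacuole, and the endoplasmic reticulum chaperone CRT3 that folds immune receptors. ABCC3 had 629, 591 and 483 CPM on gated and 201, 200.4 and 138 CPM on ungated plates. All gated plates were above 480 CPM, 3.14-fold higher (log2 1.65 ± 0.18 SE, edgeR FDR 0.00181). The family 17 glycosyl hydrolase gene AT4G34480 of the same list had 760.3, 576 and 633 CPM against 320.4, 306 and 359 CPM, again with no overlap (log2 1.0 ± 0.15 SE, edgeR FDR 0.00789). In the cluster unknown #3, 3 of 20 rose (median 0.93). By contrast, 0 of 20 genes of the cambium stem cell cluster (CSC) were called and its median was -0.31.

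Genes of the circadian clock and of light signalling formed the next group. The plant clock is built of factors that peak around dawn, such as CCA1 and LHY, and factors that peak towards evening, such as TOC1, which repress one another. Of 14 morning genes tested 8 rose and 0 fell (57.1% called, median 0.61), 5 of them in all leave-one-out fits (5 to 7 rose in each such fit), whereas 0 of 7 evening genes were called (median -0.24). CCA1 had 328, 367 and 405 CPM on gated and 132, 99.9 and 135 CPM on ungated plates. Even the lowest gated plate had more than 2 times the level of the highest ungated one, and the fitted level was 3.0-fold higher (log2 1.59 ± 0.15 SE, edgeR FDR 0.00118). RVE8, a dawn factor that activates evening genes, had 170.2, 212 and 208 CPM against 50.5, 75.2 and 76.6 CPM (log2 1.56 ± 0.18 SE, edgeR FDR 0.0023). PRR9, the earliest of the daytime repressors, had 95.5, 70.7 and 99.1 CPM against 29, 45.1 and 29.9 CPM (log2 1.35 ± 0.21 SE, edgeR FDR 0.00853). Neither gene overlapped between the gates. RVE1, which links the clock to auxin, rose likewise (log2 1.49), and LNK3 (0.83), RVE4 (0.66) and LNK1 (0.56) rose in fewer leave-one-out fits. The later repressor PRR7 (log2 -0.23), TOC1 (0.08) and the evening gene GI (-0.31) were not called. The hour at which each pool was harvested is not given in the sources used here, and its part in these differences was not tested.

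Many morning genes carry the G-box, the palindrome CACGTG bound by light-responsive bZIP and bHLH factors, in the 300 bases around their start (250 before to 50 after, both strands searched). It occurred in 7.68% of 27443 promoters, in 10 of the 14 tested morning genes (71.4%) and in 7 of the 8 that rose. Over all called genes the share was 13.2% of 219 that rose and 8.16% of 282 that fell, against 8.96% of tested genes. The sites of 5 morning genes are given to show the motif in its surroundings, with CACGTG in capitals, read along the strand of the gene from RefSeq TAIR10.1. The first lies 80 bases before the start of LHY (chr1:37934-37963, minus strand), the second 193 before CCA1 (chr2:19245386-19245415, plus), the next 172 before PRR9 (chr2:19232423-19232452, plus), then 171 before LNK3 (chr3:3923332-3923361, plus) and 111 before RVE1 (chr5:5693086-5693115, minus).
LHY: ctacaatatcacCACGTGtcgatctgcgat
CCA1: tagtgtatcagaCACGTGtcgacaaactgg
PRR9: ttaggttaatgaCACGTGttaaggtggacc
LNK3: ctaatcacatgcCACGTGtcttattctcca
RVE1: gagaaagagcgaCACGTGgcaaagatggac
A match is a run of letters and not a shown binding site.

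Among light signalling genes some rose and some fell. Of 28 genes of clock output and light, 6 rose and 2 fell (28.6% called), and 15 of the 28 had positive estimates (median 0.22). Summed over the list, gated plates were lower, at 3135 to 3534 CPM against 3669 to 4135 CPM. HYH, a bZIP factor that promotes greening beside HY5, had 27.6, 27.1 and 29.4 CPM on gated and 6.38, 5.47 and 2.8 CPM on ungated plates. HYH was thus scarce on every ungated plate. It had enough counts to be tested only through its gated plates, so no fold is given. Of 15 genes described as B-box proteins, partners of HY5 and HYH and a family chosen after its values were seen, 4 rose. The B-box protein BBX25, in the light list but outside these 15 by its description, had 73.3, 105 and 119 CPM against 37.1, 28.7 and 31.8 CPM (log2 1.6 ± 0.20 SE, edgeR FDR 0.00382). BBX18 rose by 1.63 on the log2 scale. The microproteins BBX30 (log2 2.45 ± 0.39 SE) and BBX31 (1.27) rose as well, the second in no leave-one-out fit. SPA3, a partner of the ubiquitin ligase COP1 that marks light factors for breakdown in the dark, had 114, 122 and 119 CPM against 53.4, 56.1 and 69.1 CPM (log2 1.0 ± 0.14 SE, edgeR FDR 0.00618). The related SPA1 rose by 0.76. PHYA, the far-red photoreceptor whose transcript builds up in darkness, fell (log2 -0.66; called in 1 leave-one-out fit). In the plastid, HCF173, needed to translate a core protein of photosystem II, had 100.3, 115 and 121 CPM against 55.1, 42.4 and 54.2 CPM (log2 1.15 ± 0.15 SE, edgeR FDR 0.00493), although 0 of 61 photosystem and light-harvesting genes were called.

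Photorespiration, the salvage of the 2-carbon product of Rubisco's oxygenation through peroxisomes and mitochondria, was added after its values were seen. Of 17 genes, 6 rose and 1 fell, and with 1 plate left out 1 to 5 rose, the fewest without gated plate 3. GLU1, the glutamate synthase that recovers its ammonia, had 103, 112 and 134 CPM on gated and 51.7, 61.6 and 60.7 CPM on ungated plates. The gates were separated by more than 40 CPM, a 2.02-fold difference (log2 1.01 ± 0.15 SE, edgeR FDR 0.0079). GLDP2 and GLDP1 of the mitochondrial glycine decarboxylase rose by 0.78 and 0.77 on the log2 scale, and SHM1, which takes over its product, by 0.82. GOX1, the glycolate oxidase, and GGT1, which makes glycine in the peroxisome, rose by 0.85 and 0.68. GLYK, the kinase of the last step, went the other way with 74.7, 67.1 and 80.4 CPM against 142, 134 and 98.1 CPM (log2 -0.76, edgeR FDR 0.0323). Only GLU1 of the 7 was called in all 6 leave-one-out fits.

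Genes of glucosinolates, the sulphur-rich defence compounds of the Brassicaceae, were called in both directions. Of 47 genes 8 rose and 2 fell (21.3% called; 1 to 5 rose with 1 plate left out, the fewest without ungated plate 2), with a median of 0.02. The 8 that rose act in synthesis, its control or transport, and 1 of them was called in all leave-one-out fits. Most of the list was not called, and 24 of the 47 had positive estimates. FMOGS-OX3, which oxidises side chains of aliphatic glucosinolates, had 118, 125 and 114 CPM on gated and 59.8, 58.1 and 48.6 CPM on ungated plates, 2.13-fold higher (log2 1.09 ± 0.14 SE, edgeR FDR 0.00362). The factors MYB28 of the aliphatic branch (log2 1.19) and MYB51 of the indolic branch (1.26) rose, each called in 1 leave-one-out fit. CYP83B1, SUR1 and SOT16 of the core pathway rose by 0.83, 0.70 and 0.86, the sulphate-activating APK1 by 0.79 and the transporter GTR1 by 0.94. The 2 that fell act on breakdown. NSP1, which steers breakdown towards nitriles, had 96.9, 82.4 and 98.5 CPM against 233, 183 and 185 CPM, 2.17-fold lower on gated plates (log2 -1.12 ± 0.14 SE, edgeR FDR 0.00425). PYK10, a beta-glucosidase that can act on indolic glucosinolates, had 729, 778 and 462 CPM against 1659.9, 1498 and 1222 CPM (log2 -1.15, edgeR FDR 0.0171), and its call was lost without ungated plate 1 or 2.

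PYK10 is stored in ER bodies, spindle-shaped compartments of the endoplasmic reticulum of epidermal and root cells, and meets jacalin lectins and nitrile specifiers when cells are crushed. Of 18 genes of this system, a list added after its values were seen, 9 fell and 0 rose (median -1.18; 4 to 11 fell with 1 plate left out, the fewest without gated plate 3 or ungated plate 1). NAI2, a structural protein of ER bodies, had 134, 157 and 110.4 CPM on gated and 554, 393 and 313 CPM on ungated plates. The ungated plates varied from near 310 to over 550 CPM, yet all lay above the gated ones, a 3.15-fold difference (log2 -1.65 ± 0.21 SE, edgeR FDR 0.00425). PBP1, a lectin that gathers PYK10 into aggregates, had 78, 105 and 106 CPM against 339, 218 and 221 CPM (log2 -1.43 ± 0.20 SE, edgeR FDR 0.00584). The lectin JAL33 had 108, 106 and 80.4 CPM against 290.2, 207 and 189 CPM (log2 -1.23 ± 0.19 SE, edgeR FDR 0.00817). In these lectins, ungated plate 1 was the highest. NAI1, the bHLH factor that switches on the system, fell by a like amount (log2 -1.38; called in 4 leave-one-out fits), as did JAL34 (-1.49), JAL31 (-1.28) and MEB2 (-1.2), a membrane protein of the ER body. NSP1, PBP1, JAL31, JAL33 and JAL34 lie together on chromosome 3 between 5566083 and 5595912, and as related copies they may share reads.

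Among the lists, the most lower genes were in that of sugar starvation and darkness, genes that carbon-starved or darkened tissue switches on through the kinase SnRK1. Of 29 tested, 19 fell and 0 rose (65.5% called, median -1.05), 10 of them in all leave-one-out fits, and 1 of the 29 had a positive estimate. With 1 plate left out 11 to 17 fell, the fewest without gated plate 2. BT2, a scaffold protein that responds to sugar, nitrogen and the clock, had 59.9, 44.9 and 56.1 CPM on gated and 315, 207 and 158 CPM on ungated plates. Although the ungated plates differed among themselves nearly 2-fold, the lowest was above 150 CPM and the highest gated plate below 60, a 4.25-fold difference (log2 -2.09 ± 0.24 SE, edgeR FDR 0.00251). AT1G80440, a kelch F-box protein that marks phenylalanine ammonia-lyase for breakdown, had 82.8, 86.7 and 82.7 CPM against 240.3, 221 and 285 CPM, 2.95-fold lower (log2 -1.56 ± 0.14 SE, edgeR FDR 0.000551). The dormancy-associated AT2G33830 had 43.1, 62.1 and 56.6 CPM against 159, 204 and 156 CPM (log2 -1.68 ± 0.17 SE, edgeR FDR 0.00149), and its relative DRM1 fell by 1.6 on the log2 scale. No ungated plate came within the gated range in these genes.

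Starvation genes of several metabolic steps moved together. The class II trehalose phosphate synthase-like proteins TPS8, TPS9, TPS10 and TPS11, tied to sugar signalling, fell. Trehalose phosphate enzymes by description, a family chosen after its values were seen, had 4 of 9 lower and 3 with positive estimates. TPS10 had 108, 111 and 117 CPM against 244, 220.2 and 239 CPM (log2 -1.07 ± 0.12 SE, edgeR FDR 0.00218), and TPS11 had 40.4, 47.4 and 26.6 CPM against 99.2, 80 and 98.1 CPM (log2 -1.28, edgeR FDR 0.00993). Breakdown of leucine and its kin, which feeds respiration when sugar is short, fell with DIN4 (log2 -1.07), MCCA (-0.84) and IVD (-0.93). GDH1, a glutamate dehydrogenase that returns amino acid carbon to respiration, had 83.4, 83 and 110.4 CPM against 184, 191 and 218 CPM (log2 -1.09 ± 0.15 SE, edgeR FDR 0.00554), and GDH2 fell by 0.95. The SnRK1 subunit AKINBETA1 and the related KING1 fell by 1.06 and 0.73, the second in no leave-one-out fit. The sugar transporter SFP1, outside the list, had 133, 134 and 129 CPM against 258, 248 and 288 CPM (log2 -1.0 ± 0.12 SE, edgeR FDR 0.00329). Starch and sugar metabolism as a whole did not follow, with 1 of 39 genes higher and 1 lower (median -0.02).

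Enzymes that act on wall polysaccharides were divided. Beside the 5 that rose and 13 that fell among 127 glycosyl hydrolases (median 0.05), 2 rose and 2 fell among 75 pectin enzymes (median -0.06). BXL1, a beta-xylosidase and arabinosidase of the wall, had 109, 92.3 and 116 CPM on gated and 460.3, 765 and 626 CPM on ungated plates. BXL1 was at or below 116 CPM on the gated plates and at least 460 on the ungated ones, a 5.82-fold difference (log2 -2.54 ± 0.20 SE, edgeR FDR 0.000364). BXL2 had 32.3, 39.4 and 44.2 CPM against 132, 103 and 119 CPM (log2 -1.6 ± 0.16 SE, edgeR FDR 0.00149). The beta-galactosidase BGAL2 had 40.4, 35.7 and 35.7 CPM against 102, 139 and 102 CPM (log2 -1.62 ± 0.17 SE, edgeR FDR 0.0015). BGAL1 fell by 0.96 on the log2 scale, and of 14 beta-galactosidases, a family chosen after its values were seen, 3 fell (median -0.09). Of 24 expansins and xyloglucan enzymes, which loosen the wall, 4 fell and 0 rose although 13 had positive estimates (median 0.02). XTH24, of this family, had 41, 30.8 and 34 CPM against 121, 125 and 109 CPM (log2 -1.75 ± 0.15 SE, edgeR FDR 0.000551).

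A motif of sugar-repressed genes, TATCCA, was searched in the same windows on both strands. It overlaps another such motif, TTATCC, where a T stands before it. TATCCA occurred in 16.1% of all promoters, in 12 of the 29 tested starvation genes (41.4%) and in 8 of the 19 that fell (42.1%). Over all called genes it was found in 22.3% of those that fell and 15.1% of those that rose, against 16.7% of tested genes. The sites of 3 genes that fell are printed to show the motif on either strand, with the match in capitals, from RefSeq TAIR10.1. They lie 141 bases before the start of TPS11 (chr2:8108745-8108774, plus strand), 126 before AT2G33830 (chr2:14310717-14310746, minus) and 32 before AKINBETA1 (chr5:7205433-7205462, plus), where the motif reads as its reverse complement.
TPS11: atataccaatcaTATCCAtctcgagaaaat
AT2G33830: ttaaagtaggctTATCCAcatcctaatttc
AKINBETA1: acaaaaaaaaagTGGATAattataaacttt
The evening element AAAATATCT, by comparison, was in 2.82% of all promoters, 2.99% of tested genes, 2.74% of the genes that rose and 5.32% of those that fell.

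Several genes of the outer tissues fell on gated plates. Suberin is the waxy polyester of cork and endodermis. Of 25 suberin genes matched, 12 had enough counts to be tested, and 6 of these fell (4 to 7 with 1 plate left out). Members as scarce on gated plates as ASFT passed through their ungated counts, so the share that fell is given as a description. Over all 25 matched genes the sums were 72.7, 72.6 and 144 CPM on gated and 247, 395 and 351 CPM on ungated plates. FAR5, which makes the fatty alcohols of suberin, had 1.35, 0.615 and 2.27 CPM on gated and 9.29, 30.8 and 25.2 CPM on ungated plates. ASFT, which attaches ferulate to its monomers, had 0.673, 1.85 and 1.13 CPM against 8.71, 19.1 and 12.1 CPM. Both rest on 1 to 4 counts on each gated plate and were tested only through their ungated counts, so no fold is given. The elongases KCS2 and KCS20 and the regulator MYB92 fell in fewer leave-one-out fits. CYP86A1, the hydroxylase of suberin fatty acids, had a log2 of -1.71 but was not called (edgeR FDR 0.124). Of 38 cuticle and wax genes matched, 13 were tested and 5 of these fell, none in all leave-one-out fits. They included the cutin acyltransferase GPAT6, LACS2 and the lipid exporter ABCG11. Scarce members could likewise pass through their ungated counts, so this share is also a description. Over all 38 matched genes the sums were 136, 152 and 170 CPM on gated and 292, 371 and 284 CPM on ungated plates.

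The study's droplet cluster lists for outer cell groups, of 20 genes each, held genes that fell and none that rose. Of 18 tested periderm genes 8 fell (median -1.01; 4 to 7 with 1 plate left out) and of 18 cortex genes 6 fell (-1.12). Fewer members of the phellem and epidermis lists could be tested, 11 and 10, and scarce ones passed the filter through their ungated counts, so that the 4 and 3 that fell are given as a description. Over all 20 genes, phellem sums were 38.1 to 165 CPM on gated and 208 to 374 CPM on ungated plates, and epidermis sums 69.3 to 103 and 179 to 382 CPM. Lists from other tissues that the study also used were mixed. Of the root tip epidermis list 1 of 14 rose, of the root tip cortex list 0 of 10 were called (median 0.20), and of the further cortex lists T8 had 2 of 16 higher and T9 had 3 of 16 lower. None of 5 tested genes of the cortex and endodermis list was called. MLP34 of the periderm list, a lipid-binding protein of the major latex protein family, had 79.4, 83 and 61.7 CPM on gated and 276, 278 and 243 CPM on ungated plates. The gates lay far apart, with a 3.56-fold lower level on gated plates (log2 -1.83 ± 0.15 SE, edgeR FDR 0.000375). RHD2, the NADPH oxidase that drives root hair growth, had 20.9, 8.61 and 10.2 CPM against 60.9, 61.6 and 42 CPM (log2 -2.08 ± 0.30 SE, edgeR FDR 0.00673). THAS1, the thalianol synthase of root triterpenes, had 8.75, 8.0 and 12.5 CPM against 61.5, 30.1 and 40.2 CPM, and ungated plate 1 was the highest (log2 -2.17, edgeR FDR 0.00711). The receptor kinase GSO2, which acts with GSO1 in sealing the surface of the embryo, was at 0.673, 2.46 and 0.566 CPM against 14.5, 10.9 and 14.9 CPM. With 1, 4 and 1 counts on the gated plates it was tested only through its ungated counts, and no fold is given. Of 46 peroxidases, a family taken by description and not by tissue, 5 fell and 0 rose (10.9% called, against 3.13% of all genes tested). Their median was -0.20, and 1 of the 5 was called in all leave-one-out fits. The companion cell list (CC) of the phloem also leaned low, with 4 of 20 lower (median -0.75), though the sucrose loader SUC2 itself was not called (log2 -0.44, edgeR FDR 0.32) and 0 of 14 genes of the companion cell list from leaf veins were called (median -0.12).

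Genes of several hormone pathways were called. Of 28 early auxin response genes 5 fell and 1 rose (21.4% called). DFL1, an enzyme that conjugates auxin to amino acids and is itself induced by auxin, had 35.7, 56 and 41.9 CPM on gated and 175, 204 and 256 CPM on ungated plates. Every ungated plate was above 170 CPM and every gated plate below 60, a 4.71-fold difference (log2 -2.24 ± 0.20 SE, edgeR FDR 0.000551). HAT2, an auxin-induced homeodomain factor, had 25.6, 40.6 and 34.5 CPM against 117, 116 and 148 CPM (log2 -1.91 ± 0.19 SE, edgeR FDR 0.00118). GH3.3, of the same enzyme family as DFL1, was at 1.35, 1.23 and 0 CPM against 13.3, 8.89 and 12.1 CPM. GH3.3 was tested only through its ungated counts, so no fold is given, and its call was lost without ungated plate 1. Of 20 auxin transport genes 3 fell. PILS5, which holds auxin in the endoplasmic reticulum, had 15.5, 12.3 and 11.9 CPM against 62.7, 45.1 and 40.2 CPM (log2 -1.92 ± 0.23 SE, edgeR FDR 0.0036), and the exporter PIN3 fell by 0.71 and the importer LAX2 by 1.06 in fewer leave-one-out fits. PID, the kinase that sets the polar position of PIN exporters, went up, with 28.3, 19.7 and 21 CPM against 4.64, 6.16 and 2.8 CPM. No ungated plate reached 7 CPM in PID. It had enough counts to be tested only through its gated plates, so no fold is given. In the published list of auxin-induced genes, 12 of 113 fell and 5 rose.

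Of 17 brassinosteroid genes 4 fell and 0 rose, but the list as a whole did not separate the gates. Its median was -0.08, and 6 of the 17 had positive estimates. Summed over the list, the gates overlapped, at 1340 to 1482 CPM on gated and 1433 to 1583 CPM on ungated plates. BR6OX2, the enzyme of the last step to brassinolide, had 11.4, 10.5 and 17 CPM on gated and 32.5, 93 and 93.4 CPM on ungated plates. Ungated plate 1 held less than 40% of the level of the other ungated plates but more than any gated plate (log2 -2.45 ± 0.40 SE, edgeR FDR 0.0112). CPD and ROT3 of the same synthesis fell by 0.83 and 0.80, and BAS1, which inactivates the hormone, by 1.54, each in at most 1 leave-one-out fit. CKX6, a cytokinin-degrading oxidase of the vasculature, had 90.8, 62.1 and 66.3 CPM against 156, 168 and 233 CPM (log2 -1.34 ± 0.19 SE, edgeR FDR 0.00711), the only one of 26 cytokinin genes called. Of 35 abscisic acid and drought genes 1 rose and 2 fell, and of the published abscisic acid-induced and jasmonate-induced lists 14 of 364 and 21 of 393 rose while 14 and 18 fell.

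Transport of nitrogen and ions contributed further genes that fell, given here. In the same families, 5 of 14 called nitrate and peptide transporters and 4 of 12 called ion transporters and pumps rose. AT1G59740, a member of the nitrate and peptide transporter family, had 48.4, 53.5 and 48.7 CPM on gated and 175, 155 and 181 CPM on ungated plates. With its plates tightly grouped in each gate, it was 3.38-fold lower (log2 -1.76 ± 0.13 SE, edgeR FDR 0.000341). CLC-A, which loads nitrate into the vacuole, had 45.1, 61.5 and 62.3 CPM against 127, 115 and 113 CPM (log2 -1.07, edgeR FDR 0.00689). TDT, the vacuolar malate carrier, had 82.8, 84.3 and 103 CPM against 156, 170.3 and 201 CPM (log2 -0.96, edgeR FDR 0.00831). The sodium-proton antiporter NHX4 and the potassium channel subunit KAT3 fell by 1.49 and 1.55, and the phosphate importer PHT1;1 by 1.47 in 3 leave-one-out fits. Among 32 genes of nitrate and phosphate supply only PHT1;1 and the repressor HRS1 were called. None of 24 sulphur and zinc supply genes and none of 20 xylem loading genes was called. The aquaporin RD28 rose by 1.12, and GR1, the cytosolic glutathione reductase, rose from 66.2, 71.1 and 76.6 CPM on ungated to 172, 152 and 190.3 CPM on gated plates (log2 1.27 ± 0.14 SE, edgeR FDR 0.00187).

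Few genes of the vascular lists were called. Of 50 cambium genes listed 36 were tested, and LBD4 was the only one called (2.78%, median 0.08). LBD4, a factor at the phloem side of the cambium, had 112, 130.4 and 111 CPM on gated and 197, 199 and 228 CPM on ungated plates. It was lower in the gated nuclei by 1.76-fold (log2 -0.82 ± 0.13 SE, edgeR FDR 0.00993). Of 22 phloem genes and 22 S-phase genes none was called, and of 11 mitotic genes CDC20.2 fell. The GFP reporter was at 59.9, 98.4 and 53.8 CPM against 78.9, 108 and 85 CPM, overlapping between the gates, so this marker of the gate was not enriched in these sums. The second reporter, PXY and SMXL5 were not called either, with log2 differences of 0.06, -0.24 and -0.09. Secondary wall genes, which thicken the walls of vessels and fibres, had positive estimates in 12 of 15 tested (median 0.61), with 1 called. CESA4, a cellulose synthase of secondary walls, had 61.2, 60.9 and 13.6 CPM against 4.06, 22.6 and 2.8 CPM, high on gated plates 1 and 2 but lower on gated plate 3 than on ungated plate 2 (log2 2.14, edgeR FDR 0.141). Its partners CESA7 (log2 1.35) and CESA8 (1.5) were not called either.

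Counts within single nuclei showed how widely each group was spread. Each nucleus was thinned to 1200 counts, below the lowest passing depth, so that none was left out. After thinning, 94.2, 92.4 and 96.2% of nuclei on the gated plates and 82.3, 84.1 and 87.3% on the ungated plates held at least 1 count from a morning clock gene (unthinned 99.4, 99.6 and 100% and 96.2, 97.4 and 98.9%). Starvation genes had a count in 76, 80.1 and 79.1% of gated and 91.5, 95.3 and 90.6% of ungated nuclei (unthinned 94.2, 97.8 and 97.3% and 98.3, 99.6 and 99.4%). Both groups thus reached most nuclei of every plate. In suberin genes the shares were 5.43, 4.69 and 7.19% and 12.6, 15.5 and 14.4% (unthinned 17.57, 18.4 and 22.9% and 29.7, 40.9 and 38.1%). The top 5% of nuclei held 75.3% to 80.2% of thinned suberin counts on ungated plates (75 to 121 counts a plate), against 13.9% to 18.3% of morning clock counts. Part of this contrast comes from the number of counts, as morning clock genes had 620 on ungated plate 1. Evening clock genes, with 109 counts on that plate, had 35.8% of them in the top 5%, and suberin genes, with 121, had 80.2%. The gated plates held 18 to 36 thinned suberin counts each, too few to read a concentration from. ER body genes lay between, with a count in 51.8, 58.1 and 51.4% of gated and 69.6, 68.1 and 61.9% of ungated nuclei (unthinned 83.4, 88.1 and 87% and 94.5, 94 and 92.8%). Defence and salicylic acid genes had a count in 86.6, 85.9 and 86.3% and 74.7, 81 and 76.2% (unthinned 98.1, 98.6 and 98.3% and 95.9, 95.7 and 95.6%). These shares were not tested, and stray RNA between wells could add to them, as the blank wells also held counts.

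**Figure D4:**
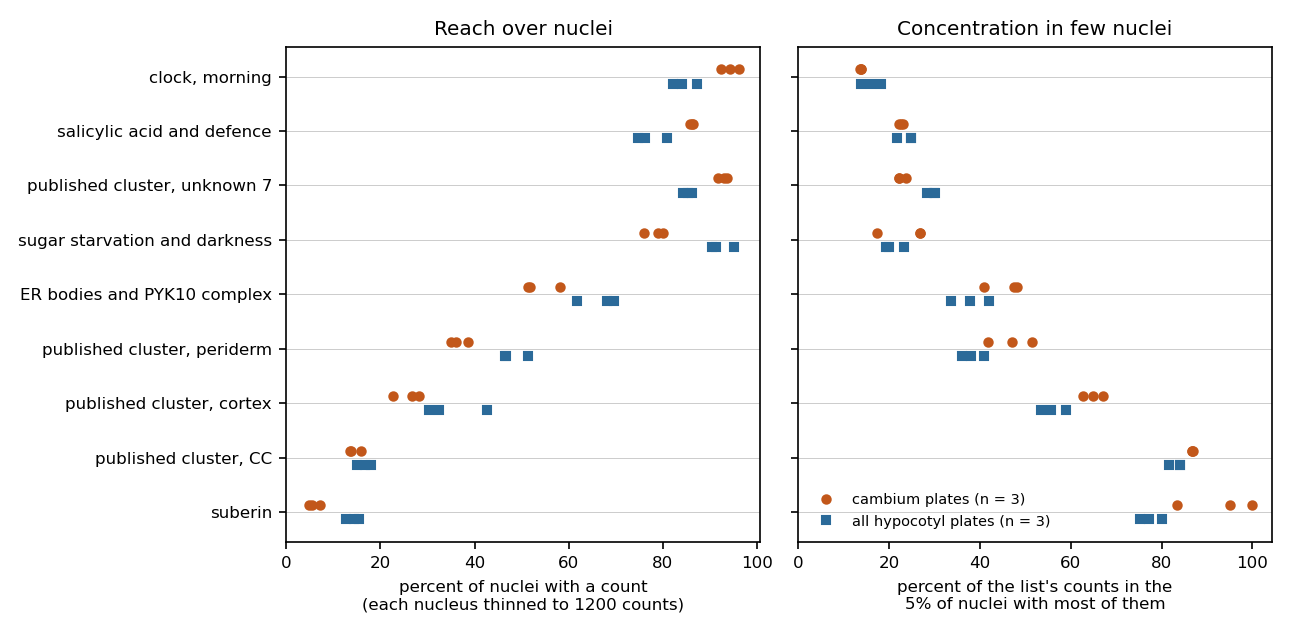
Left, percent of nuclei with at least 1 count from a list after thinning each nucleus to 1200 counts; right, percent of the list's counts that lie in the 5% of nuclei with most of them; each point is a plate (n = 3 for each gate). Morning clock, defence and starvation genes reach most nuclei of every plate, while 75.3% to 80.2% of suberin counts on ungated plates lie in the top 5%; on gated plates the 18 to 36 suberin counts are too few to read this share.

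Some of the genes that differed lay beside one another. Of 16022 pairs of neighbouring tested genes, both members were called in 42, and in 34 of these both moved the same way, 27 of them on the same strand. A tested gene with a called neighbour was itself called in 7.54% of 982 cases, against 3.15% of all tested genes on the chromosomes. The runs included WRKY46, AT2G46420, CNGC3, CNGC11 and CNGC12 on chromosome 2 (all higher), the nitrile specifier and lectin genes on chromosome 3 (all lower), and RPS6, AT5G46490 and AT5G46500 on chromosome 5 (18842553 to 18858552, all higher). AT5G46500 had 31, 25.2 and 35.1 CPM on gated and 5.8, 10.3 and 9.34 CPM on ungated plates (log2 1.86 ± 0.29 SE, edgeR FDR 0.00853). In 2 of the 42 pairs the genes overlap, and tandem copies such as CRK14 and CRK15, WAK1 and WAK2 or MLP328 and MLP329 may share reads.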

How the data were processed

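Nuclei of 6 plates were analysed (3 cambium-gated, 3 ungated). Per the labels and the study's methods, the authors made the deposited counts, of unique fragment identifiers (UFIs) per gene and well, from VASA-seq libraries against TAIR10, with STAR 2.7.8a, Cell Ranger 6.0.1 and Seurat named among their tools. The counts are unnormalised. Counts were summed per plate over wells with over 1200 and under 15000 counts (all had under 20% mitochondrial counts), without the 92 ERCC features and the 6 blank wells; the study's fluorescence limits were not applied. Plate sums of 1148888 to 1822306 counts were fitted with edgeR 4.0.16 (R 4.3.3): filterByExpr (minimum count 10), TMM factors, the quasi-likelihood test and Benjamini-Hochberg FDR below 0.05. CPM are counts scaled to the plate's TMM-adjusted total and are not adjusted for gene length, so levels are compared within a gene only. Plate summaries were compared by exact permutation. Names and promoters came from RefSeq TAIR10.1 (37390 of 38115 features matched). Of 1118 listed symbols, 1061 matched. Genes were named by rank (15 each way among genes of 20 CPM or more), by list membership and by family. The comparison, its members and the lists were chosen with earlier results of these data known, and lists or families stated to be added were chosen after their values were seen. Alternatives were DESeq2 1.42.0, RLE factors, other filters and well limits, thinning, a replicate block and leaving out each plate. The scripts' statistics were tested on simulated data.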

Additional observations from a re-analysis of the deposited data

How the results depend on the processing

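No called gene named in the text changed direction. The difference in organelle share, which was not called, was -0.107 percentage points (gated minus ungated) and 0.044 with no upper limit per nucleus (exact permutation p = 0.7 and 1.0). Without a filter on low counts 1291 genes were called (564 higher, 727 lower), and after thinning each nucleus to 1200 counts 147 (63 higher, 84 lower), where fewer counts were available to the test. With 1 plate left out, the number lay between 231 and 355 (88 to 136 higher, 138 to 219 lower), the fewest without ungated plate 2, and fewer plates enter such fits. Of the 505 genes, 382 were also called by DESeq2 (467 in all) and 505 with RLE size factors (506 in all); a minimum of 2500 counts per nucleus gave 443 (435 shared), and no upper limit per nucleus 585 (384 shared). A fit with the replicate block called 574 genes (260 higher, 314 lower; 447 shared). Whether the numbers pair the plates was not settled. Same-numbered plates deviated from their gate means with correlations of 0.13, -0.03 and 0.07 across genes. Gated plates 1 and 3 correlated best with the ungated plate of the same number, while gated plate 2 did so with ungated plate 3 (0.10). Depth limits the comparison to genes with about 10 counts or more in 3 plates, and scarce genes such as FAR5 rest on few counts in the gated plates.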

Other observations

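Several groups outside the comparisons above held called genes. The knotted-type homeodomain factors KNAT2 and KNAT6, kept active in meristems, rose by 0.94 and 0.56 on the log2 scale, and BLH1, a homeodomain protein that can partner them, by 0.64, with none of the 3 called in all leave-one-out fits. KNAT6 had 463, 421 and 449 CPM on gated and 266, 328 and 307 CPM on ungated plates. Of 117 genes described as homeobox or homeodomain-like, which takes in HAT2 but also MYB-related clock factors such as LHY, 8 rose and 4 fell. Of 21 cysteine-rich receptor-like kinases, a family chosen after its values were seen, 5 rose and 1 fell, and CRK14 rose by 1.48.

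OPT3, which loads iron into the phloem, rose by 1.06, the only one of 17 iron supply genes called, and GolS1, which starts raffinose synthesis, rose by 0.85. NAC1, a factor of lateral root formation, fell by 1.3, and the signalling peptide CLE6 by 1.89. UNE10, a bHLH factor that inhibits light responses, had 8.75, 6.77 and 13.6 CPM on gated and 0, 0 and 0.934 CPM on ungated plates, where 2 of the 3 held no count, so no fold is given. UNE10 had enough counts to be tested only through its gated plates. Its call was lost without gated plate 3, ungated plate 1 or ungated plate 2. Of 219 long noncoding RNAs tested 1 fell and 0 rose, and none of 143 small nucleolar RNAs was called.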
